A study of Mus musculus with 7 samples.

Results

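The heat shock protein genes described here were 10 mouse genes listed by function as stress-induced and constitutive chaperones or their partners: Hspa1a, Hspa1b, Hspa8, Hsph1, Dnajb1, Hspb1, Hsp90aa1, Hspd1, Hspe1 and Bag3. Every probe set annotated to 1 of these genes alone was taken, which gave 21 probe sets of the 22625 measured, and all 10 genes had at least 1 (of 12393 genes named in all). The cells were CD11c-positive cells enriched magnetically from mouse spleen on day 7 after an allogeneic transplant of hematopoietic stem cells, blood-forming cells from a genetically different donor. The study compared 3 arrays labelled Atg16L1 hypomorphic with 4 arrays labelled WT, all with a C57BL/6J genetic background, and no further agent is named for either group. Age is given as 9 weeks in the sample protocol and as 8 weeks in the description of the experiment. Atg16l1 encodes a protein that autophagosomes need to form, and a hypomorph keeps part of a gene's function. The spleens were those of transplant recipients, per the description of the experiment. The genotype of the donors and the share of measured cells that came from them are not stated.

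Heat shock proteins are chaperones, which bind unfolded proteins, keep them from clumping and help them to fold. HSP70 proteins, encoded here by the stress-induced Hspa1a and Hspa1b and the constitutive Hspa8, work with J proteins such as Dnajb1, which deliver unfolded clients, and with exchange factors such as Hsph1 and Bag3, which release them. Hsp90aa1 encodes the inducible cytosolic HSP90, Hspb1 a small heat shock protein, and Hspd1 and Hspe1 the chaperonin of the mitochondrial matrix and its lid. Stress activates heat shock factor 1, which binds repeated GAA and TTC units in the promoters of these genes, called heat shock elements.

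Promoter sequences are shown because the list holds 2 couples of neighbouring genes, Hspa1a with Hspa1b and Hspd1 with Hspe1, and their promoters show how alike or how shared they are. Over the 7 arrays Pearson r was 0.966 between Hspa1a and Hspa1b and 0.750 between Hspd1 and Hspe1, while Hsp90aa1, which is no neighbour, had r of 0.818 with Hspd1 and 0.916 with Hspe1. Sequences are from RefSeq, build GRCm38.p6, as windows of 300 bases around a gene's start, in the direction of transcription. Of the 10 genes, 8 had an entry, with 11 windows in all, and Hspa8 and Hsp90aa1 had none. Capitals mark inverted neighbouring units of a heat shock element, searched as GAANNTTC and TTCNNGAA, each of which reads the same on both strands. Matches that overlap run together. Hspa1a (chr17:34972107-34972406, minus strand) and Hspa1b (chr17:34959189-34959488, minus strand) are given first, then Hspe1 (chr1:55087898-55088197, plus strand), Hsph1 (chr5:149636287-149636586, minus strand) and Hspb1 (chr5:135887669-135887968, plus strand). Hspe1 is shown for the stretch it shares with Hspd1, and Hsph1 and Hspb1 because, after Hspa1a and Hspa1b, they spanned the widest ranges over the arrays (1.06 and 0.93 on the log2 scale).
Hspa1a: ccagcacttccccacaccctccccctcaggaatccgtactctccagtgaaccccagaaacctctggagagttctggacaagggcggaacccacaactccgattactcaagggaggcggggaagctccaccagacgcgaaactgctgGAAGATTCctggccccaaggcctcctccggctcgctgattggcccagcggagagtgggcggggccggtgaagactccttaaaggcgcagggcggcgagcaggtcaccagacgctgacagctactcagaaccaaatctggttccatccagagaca
Hspa1b: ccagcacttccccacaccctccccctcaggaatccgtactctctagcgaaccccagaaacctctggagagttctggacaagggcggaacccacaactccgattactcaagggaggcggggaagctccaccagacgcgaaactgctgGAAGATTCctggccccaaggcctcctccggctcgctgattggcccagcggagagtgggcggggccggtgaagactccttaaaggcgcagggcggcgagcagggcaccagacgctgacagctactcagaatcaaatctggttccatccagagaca
Hspe1: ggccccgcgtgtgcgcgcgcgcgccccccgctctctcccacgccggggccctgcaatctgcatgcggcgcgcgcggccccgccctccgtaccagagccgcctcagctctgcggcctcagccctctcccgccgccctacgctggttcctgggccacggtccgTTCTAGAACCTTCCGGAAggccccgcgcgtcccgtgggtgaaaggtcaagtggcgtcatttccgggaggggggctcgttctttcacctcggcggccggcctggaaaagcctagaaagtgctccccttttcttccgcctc
Hsph1: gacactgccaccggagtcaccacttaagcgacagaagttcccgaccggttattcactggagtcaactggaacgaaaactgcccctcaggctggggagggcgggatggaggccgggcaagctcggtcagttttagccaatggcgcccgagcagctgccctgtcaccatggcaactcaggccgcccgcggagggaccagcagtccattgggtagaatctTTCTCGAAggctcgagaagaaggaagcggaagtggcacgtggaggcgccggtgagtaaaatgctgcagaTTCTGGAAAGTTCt
Hspb1: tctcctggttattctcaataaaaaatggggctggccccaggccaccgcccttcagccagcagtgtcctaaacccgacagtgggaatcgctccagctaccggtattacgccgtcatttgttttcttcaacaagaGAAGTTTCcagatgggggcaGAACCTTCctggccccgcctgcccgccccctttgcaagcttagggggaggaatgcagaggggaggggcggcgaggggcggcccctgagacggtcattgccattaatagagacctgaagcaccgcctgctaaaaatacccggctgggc

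The windows of Hspa1a and Hspa1b differed in 4 of 300 bases. Counted from 1 at the 5′ end, with the base of Hspa1a before the position and that of Hspa1b after it, these were C44T, T47C, T249G and C276T. Both held 1 match, GAAGATTC, at bases 147 to 154, so none of the 4 differences touched it. No other protein-coding gene lies between these genes in the gene order of GRCm38.p6, and none between Hspd1 and Hspe1, which are transcribed away from each other. One of the 2 windows of Hspd1 shared 285 bases with the window of Hspe1 on the opposite strand. In that shared stretch 3 overlapping matches formed an unbroken row of units from base 162 to base 179 of the Hspe1 window.

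Of the 8 genes with a window, 7 held at least 1 match of GAANNTTC or TTCNNGAA and Dnajb1 held none in either of its windows. Among all 27025 genes with a window, 17.0% held such a match. The 7 are not separate cases, since Hspa1a and Hspa1b have near-identical windows and Hspd1 and Hspe1 hold the same matches. Longer rows, in which either pattern is followed after 2 more bases by a further inverted unit (GAA after TTC, or TTC after GAA, the reverse complements of each other), were found for Hsph1, Hspd1 and Hspe1, against 0.662% of all genes. The longer rows of Hspd1 and Hspe1 are the same shared stretch. That of Hsph1 lies after the gene's start in both of its windows, as does the single match of Bag3. These are letter matches in short windows, and binding was not measured here.

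Each array gave 1 log2 value per probe set, as deposited by the authors, and a log2 difference of 1 is a doubling of the linear signal. Array medians lay between 5.48 and 5.52 on the hypomorph arrays and between 5.46 and 5.53 on the wild-type arrays. Levels of different probe sets are not compared, since probes differ in how well they bind. Precision rests on 7 arrays, and nothing states that these were separate animals, so p-values measure the spread between these 7 samples. Atg16l1 was at 6.86, 6.76 and 6.94 on the hypomorph arrays, against 7.42, 7.33, 7.26 and 7.20 on the wild-type arrays, without overlap. Its log2 change was -0.45 (exact two-sided permutation p = 0.0286, the smallest that these 35 splits allow), and the adjusted p in the limma fit was 0.462. The dendritic cell marker Itgax, which encodes CD11c itself, read 7.98 to 8.48 on the hypomorph arrays and 7.98 to 8.33 on the wild-type arrays, and the 10 measured dendritic cell markers averaged 8.06 to 8.34 on the hypomorph and 8.01 to 8.28 on the wild-type arrays. Markers of other spleen cells were present as well, with means of 11.15 to 11.34 on the hypomorph and 10.46 to 11.45 on the wild-type arrays for 11 red pulp macrophage genes. In such a mixture, fewer cells of a type and less RNA per cell cannot be told apart.

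Hspa1a and Hspa1b, the stress-induced cytosolic HSP70 genes, varied far more than the other chaperones, and they varied within wild type as much as between the genotypes. The leading probe set of Hspa1b (the one with the highest mean of the gene) was at 8.53, 8.56 and 7.53 on the hypomorph arrays, against 9.17, 6.49, 6.74 and 6.41 on wild-type arrays 1 to 4. The single probe set of Hspa1a was at 6.42, 6.09 and 5.79 on the hypomorph arrays, against 6.85, 5.05, 4.85 and 4.41 on the wild-type arrays. For both genes, wild-type replicate 1 was the highest of all arrays, all 3 hypomorph arrays came next, and the other 3 wild-type arrays were lowest.

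**Figure D1:**
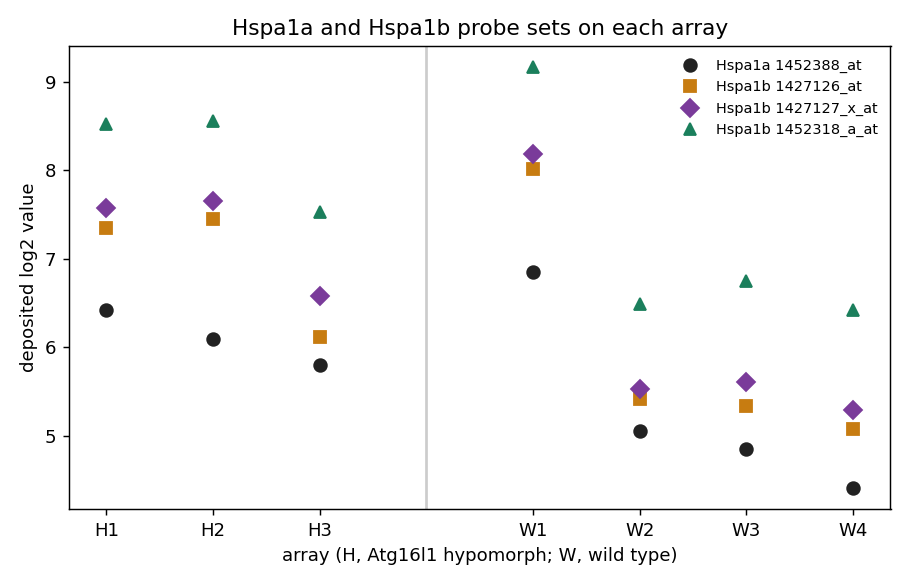
Deposited log2 value (vertical axis) of the 4 probe sets of Hspa1a and Hspa1b on each array (horizontal axis: H1 to H3, Atg16l1 hypomorph; W1 to W4, wild type); each point is 1 array. W1 is highest in every probe set, at 9.17 for the leading Hspa1b probe set, and W2 to W4 lie below all 3 hypomorph arrays.

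The other 2 Hspa1b probe sets gave the same order of the groups. One read 7.58, 7.66 and 6.58 on the hypomorph arrays, against 8.18, 5.53, 5.61 and 5.29 on the wild-type arrays, and the other read 7.34, 7.44 and 6.11 on the hypomorph arrays, against 8.01, 5.41, 5.33 and 5.07 on the wild-type arrays. Between any 2 of the 4 probe sets Pearson r over the 7 arrays was 0.965 to 0.998, given as a description, since the genes are near-identical copies and their probe sets may bind transcripts of both. Signals of Hspa1a and Hspa1b were not separated further here. From the highest to the lowest array the values spanned 5.44-fold for Hspa1a and 6.73-fold for the leading Hspa1b probe set.

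The hypomorph average was higher, but the groups overlapped and the difference did not pass the test. Hspa1b averaged 8.20 ± 0.586 (SD, n = 3) in the hypomorph and 7.20 ± 1.32 (SD, n = 4) in wild type, a log2 change of 1.0 with a 95% confidence interval from -0.57 to 2.57 (limma adjusted p = 0.705, exact two-sided permutation p = 0.229). Hspa1a averaged 6.10 ± 0.311 in the hypomorph and 5.29 ± 1.07 in wild type, a log2 change of 0.81 with an interval from -0.43 to 2.05 (limma adjusted p = 0.699, exact two-sided permutation p = 0.257). The SD within wild type was thus larger than the difference between the groups for both genes.

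Wild-type replicate 1 decided the size of this difference. Without it the log2 change of Hspa1b was 1.65, with an interval from 0.96 to 2.35, and that of Hspa1a 1.33, with an interval from 0.81 to 1.85 (limma adjusted p = 0.717 for both, unadjusted p = 0.00097 and 0.000689). On the linear scale this is a hypomorph signal 3.15 times higher for Hspa1b and 2.51 times higher for Hspa1a than in the remaining 3 wild-type arrays, all of which lay below all hypomorph arrays. The array was looked at because of these values, so the smaller p is a description of what 1 array changes.

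No gene outside this couple lay as far above the other wild-type arrays on wild-type replicate 1; gaps below them were not ranked. Of 12393 genes, each taken by its leading probe set, Hspa1b had the largest gap between this array and the highest other wild-type array, 2.42, and Hspa1a the next largest, 1.80. The gap of the gene after them, Zbtb32, was 0.94, and the median over all genes was -0.07. The other 8 heat shock genes had gaps from -0.41 (Hspd1) to 0.19 (Hspa8), so none stood apart on this array as the Hspa1 couple did. The median deviation of all 10 genes from their mean over the arrays was still highest there, at 0.17. It was 0.14 on hypomorph replicate 2. For 63 measured chaperone genes outside the list it was 0.07 on wild-type replicate 1 and also 0.07 on wild-type replicate 2.

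**Figure D2:**
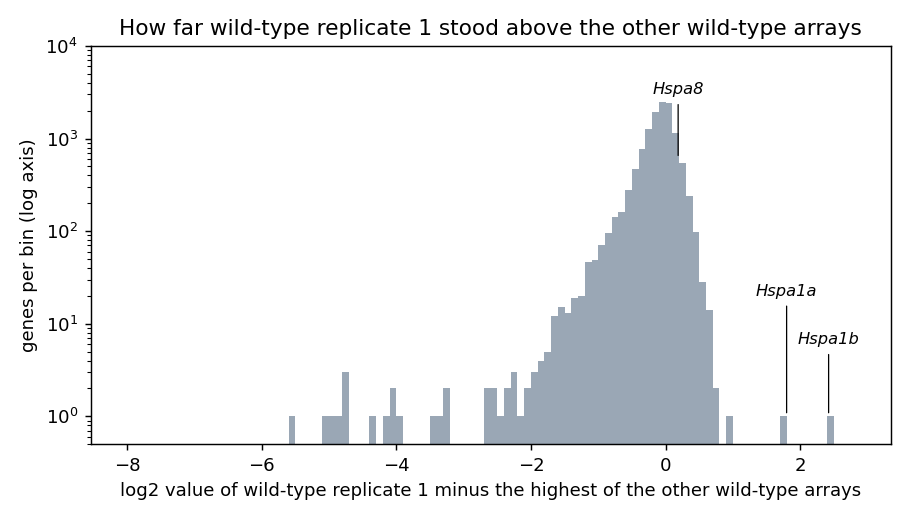
Number of genes (vertical axis, log scale) by the log2 value of wild-type replicate 1 minus the highest of the other 3 wild-type arrays (horizontal axis), for the leading probe set of 12393 genes. Hspa1b at 2.42 and Hspa1a at 1.80 stand at the far right, apart from all other genes, while Hspa8 at 0.19 lies inside the bulk.

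The list of pancreatic acinar markers moved opposite to the Hspa1 signal, though not in every pair of arrays. Of its 13 genes 10 were measured, and 9 of these 10 were lower in the hypomorph, with a median log2 change of -2.12. Their mean level was 4.48, 4.40 and 6.21 on the hypomorph arrays, against 5.13, 6.27, 7.67 and 8.41 on wild-type arrays 1 to 4, and the log2 scale has no zero at which a marker could be called absent. The 3 arrays with the lowest acinar level were thus the 3 with the highest Hspa1b value, and wild-type replicate 4 had the highest acinar level and the lowest Hspa1b. Hypomorph replicate 3 and wild-type replicate 2 had similar acinar levels (6.21 and 6.27) but differed in Hspa1b (7.53 against 6.49). Wild-type replicate 3 was above wild-type replicate 2 in both the acinar level and Hspa1b (6.74 against 6.49). With the acinar level as a covariate, a setting chosen after the data were seen, the change of Hspa1b was -0.25 (interval -1.55 to 1.05) and that of Hspa1a -0.23 (-1.13 to 0.67), with limma adjusted p = 0.898 and 0.854. The sign of the genotype difference therefore turned with this setting. The part of acinar transcripts in the result was not tested beyond this.

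Other lists set wild-type replicate 1 apart by less. The median deviation from the mean of all arrays was 0.48 there for 6 T cell genes, against -0.36 to 0.05 on the other wild-type arrays, and -0.61 for the 11 red pulp macrophage genes, against -0.26 to 0.30. The hypomorph arrays lay between -0.12 and 0.16 for T cell genes and between 0.02 and 0.21 for macrophage genes. All 8 measured neutrophil genes were lower in the hypomorph, with median deviations of -0.45, -0.35 and 0.19 on the hypomorph arrays, against 0.07, 0.25, 0.22 and 0.29 on the wild-type arrays. The part of these cells in the Hspa1 signal was not tested. The 19 immediate early genes, quickly induced transcription genes such as Fos and Jun, had a median deviation of -0.07, -0.03 and 0.23 on the hypomorph arrays, against -0.11, 0.04, 0.10 and -0.07 on the wild-type arrays. Their median was lowest on wild-type replicate 1, where Hspa1a and Hspa1b were highest, but hypomorph replicate 1 and wild-type replicate 4 were close to it (both -0.07). Single genes went both ways on wild-type replicate 1, where Fos was the lowest of all arrays (12.42) and Ier2 the highest (10.19).

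Hspa8, the constitutive HSP70 that every cell uses for routine folding, stayed within a narrow range in 3 of its 4 probe sets. The leading one read 12.69, 12.67 and 12.63 on the hypomorph arrays, against 12.84, 12.65, 12.66 and 12.56 on the wild-type arrays, a log2 change of -0.02 (interval -0.20 to 0.17, limma adjusted p = 0.968). The next 2 had changes of 0.04 and -0.03, with intervals from -0.11 to 0.19 and from -0.22 to 0.16. From the highest to the lowest array these 3 probe sets spanned 1.13- to 1.21-fold. The leading one and that with a change of 0.04 carry the array maker's suffix for probes that may also bind other sequences.

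The fourth Hspa8 probe set did not follow them. It read 7.03, 7.00 and 6.78 on the hypomorph arrays, against 6.91, 6.61, 6.28 and 6.32 on the wild-type arrays, with a log2 change of 0.41 (interval 0.03 to 0.78, unadjusted p = 0.036, limma adjusted p = 0.644). Among the wild-type arrays replicate 1 was again the highest, and only this array overlapped the hypomorph range. Without it the change was 0.53 (limma adjusted p = 0.717), and with the acinar covariate it was 0.08 (interval -0.15 to 0.31). The probe sets of Hspa8 thus disagreed, and which transcript the fourth detects was not analysed here.

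Hspb1, a small heat shock protein that holds unfolded proteins without using ATP, was the member with the clearest difference by unadjusted p. Its leading probe set read 5.54, 5.28 and 5.86 on the hypomorph arrays, against 5.28, 5.28, 4.97 and 4.92 on the wild-type arrays, so that hypomorph replicate 2 lay level with the highest wild-type arrays. Means were 5.56 ± 0.286 (SD, n = 3) in the hypomorph and 5.11 ± 0.193 (SD, n = 4) in wild type, 1.36-fold higher in the hypomorph (unadjusted p = 0.0219, limma adjusted p = 0.644, exact two-sided permutation p = 0.0571). The other probe set had a log2 change of 0.48 (interval -0.002 to 0.95), but read 4.73, 4.30 and 4.68 on the hypomorph arrays, against 3.67, 4.56, 4.11 and 4.04 on the wild-type arrays, with wild-type replicate 1 lowest. Both probe sets pointed the same way, and in neither did the groups separate. The leading probe set read near the array medians, and the values come without detection calls.

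Bag3, the exchange factor that couples HSP70 to autophagy of unfolded proteins, differed little between the groups. Its probe set read 6.10, 6.08 and 6.10 on the hypomorph arrays, against 5.89, 6.22, 6.02 and 6.10 on the wild-type arrays. The log2 change was 0.03, with an interval from -0.17 to 0.23 (limma adjusted p = 0.931). Wild-type replicate 1, highest for Hspa1a and Hspa1b, was the lowest array for Bag3.

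**Figure D3:**
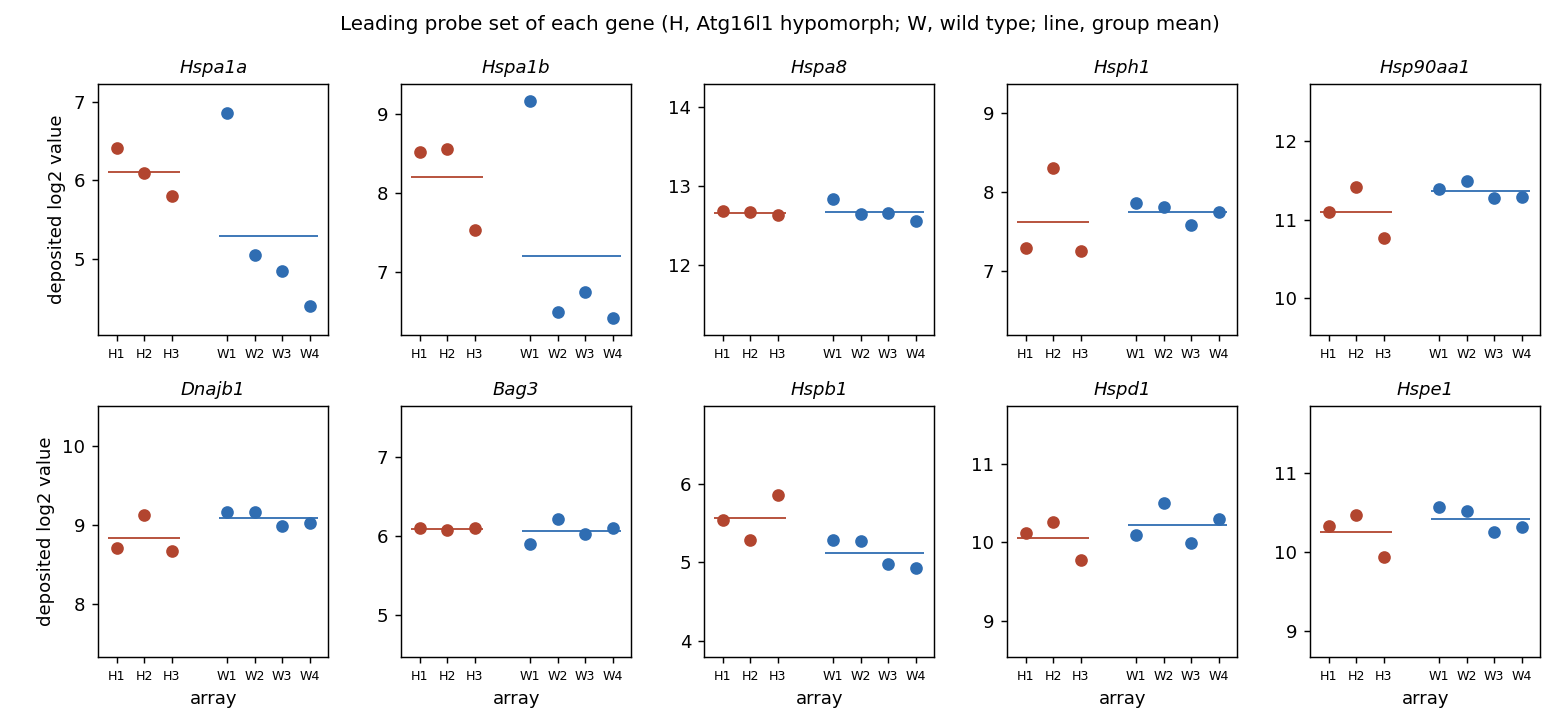
Deposited log2 value (vertical axes, all spanning the same width) of the leading probe set of each of the 10 genes on each array (H1 to H3, Atg16l1 hypomorph, red; W1 to W4, wild type, blue); lines are group means. Hspa1a and Hspa1b spread over more than 2.4, Hspa8 and Bag3 over 0.28 and 0.33, and H3 is lowest for Hsph1, Hsp90aa1, Dnajb1, Hspd1 and Hspe1.

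Dnajb1 and Hsp90aa1 shared another pattern, in which hypomorph replicate 3 was low. Dnajb1, the J protein that stimulates HSP70, read 8.71, 9.13 and 8.67 on the hypomorph arrays, against 9.16, 9.16, 8.99 and 9.03 on the wild-type arrays (log2 change -0.25, interval -0.53 to 0.03, limma adjusted p = 0.648). Hsp90aa1 read 11.09, 11.42 and 10.77 on the hypomorph arrays, against 11.38, 11.49, 11.27 and 11.29 on the wild-type arrays (log2 change -0.26, interval -0.61 to 0.08, limma adjusted p = 0.666). In these leading probe sets, hypomorph replicates 1 and 3 were below all wild-type arrays for both genes, while hypomorph replicate 2 lay inside the wild-type range. The second probe set of Dnajb1 had a change of -0.10, and the other 2 of Hsp90aa1 had changes of -0.19 and -0.02. In that Dnajb1 probe set hypomorph replicate 1, at 7.96, lay inside the wild-type range of 7.84 to 8.13. Hypomorph replicate 2 was the highest of all arrays in those 2 Hsp90aa1 probe sets, at 10.89 and 10.79. In the one with a change of -0.02, hypomorph replicate 1 (10.45) lay inside the wild-type range of 10.30 to 10.65.

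Hsph1, an HSP110 protein that recharges HSP70, spread widely within the hypomorph. Its leading probe set read 7.29, 8.31 and 7.25 on the hypomorph arrays, against 7.86, 7.82, 7.59 and 7.74 on the wild-type arrays, so the hypomorph held both the highest array and the lowest. The SD was 0.600 (n = 3) in the hypomorph and 0.120 (n = 4) in wild type, and the log2 change was -0.14 (interval -0.71 to 0.44, limma adjusted p = 0.899). Without hypomorph replicate 2 it was -0.48 (limma adjusted p = 0.140), and without replicate 3 it was 0.05. The second probe set gave the same picture, at 5.98, 6.80 and 5.71 on the hypomorph arrays, against 6.29, 6.18, 6.18 and 6.33 on the wild-type arrays.

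The mitochondrial chaperonin genes Hspd1 and Hspe1, whose start regions overlap in the sequence above, were also lowest on hypomorph replicate 3. Hspd1 read 10.11, 10.26 and 9.77 on the hypomorph arrays, against 10.09, 10.50, 9.98 and 10.30 on the wild-type arrays. Hspe1 read 10.33, 10.47 and 9.94 on the hypomorph arrays, against 10.58, 10.52, 10.25 and 10.33 on the wild-type arrays. The log2 changes were both -0.17, with intervals from -0.53 to 0.20 and from -0.50 to 0.16 (limma adjusted p = 0.782 and 0.758), and the groups overlapped for both. The second probe set of Hspe1 gave -0.14. The leading probe set of Hspe1 carries the suffix that the array maker uses for probes shared between transcripts of several genes. Both genes lie on chromosome 1, as does Atg16l1, with 242 protein-coding genes between Hspd1 and Atg16l1.

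Across Hsp90aa1, Dnajb1, Hsph1, Hspd1 and Hspe1, a group formed after their values were seen and therefore not tested, hypomorph replicate 3 was the lowest array in 10 of 10 probe sets. Over all 12393 genes it was the lowest array for 18.6%. The median deviation of the 5 genes was -0.15, 0.15 and -0.40 on the hypomorph arrays, against 0.17, 0.19, -0.09 and 0.05 on the wild-type arrays. Pearson r between 2 of these genes ran from 0.600 to 0.937 over the 7 arrays, whereas it ran from -0.30 to 0.29 between them and Hspa1a or Hspa1b. These are descriptions over 7 points that share each array's RNA and normalization.

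Proliferating and erythroid cell markers moved with this group. The 9 measured proliferating cell genes had median deviations of -0.22, 0.17 and -0.53 on the hypomorph arrays, against 0.21, 0.21, 0.06 and 0.14 on the wild-type arrays, and all 9 were lower in the hypomorph, with a median log2 change of -0.40. Their mean level ranged from 9.12 to 9.78 on the hypomorph arrays and from 9.69 to 9.87 on the wild-type arrays, and all 9 read lowest on hypomorph replicate 3. The 9 measured erythroid genes had mean levels of 6.07 to 8.51 on the hypomorph and 7.81 to 8.43 on the wild-type arrays, with deviations of -0.37, 0.69 and -1.69 on the hypomorph arrays. The 7 measured basophil and mast cell genes were all lower in the hypomorph, with median deviations of -0.26, -0.29 and -0.83 on the hypomorph arrays, against 0.23, 0.46, -0.09 and 0.71 on the wild-type arrays. The part of these cells in the chaperone values was not tested. Without hypomorph replicate 3 the changes of Hspd1 and Hspe1 were -0.03 and -0.02, and those of Hsp90aa1 and Dnajb1 were -0.10 and -0.16. Leaving out hypomorph replicate 2 instead moved them the other way. Hspd1 and Hspe1 were then at -0.27 and -0.28, and Hsp90aa1 and Dnajb1 at -0.43 and -0.39. The size of these changes thus turned on more than 1 hypomorph array.

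**Figure D4:**
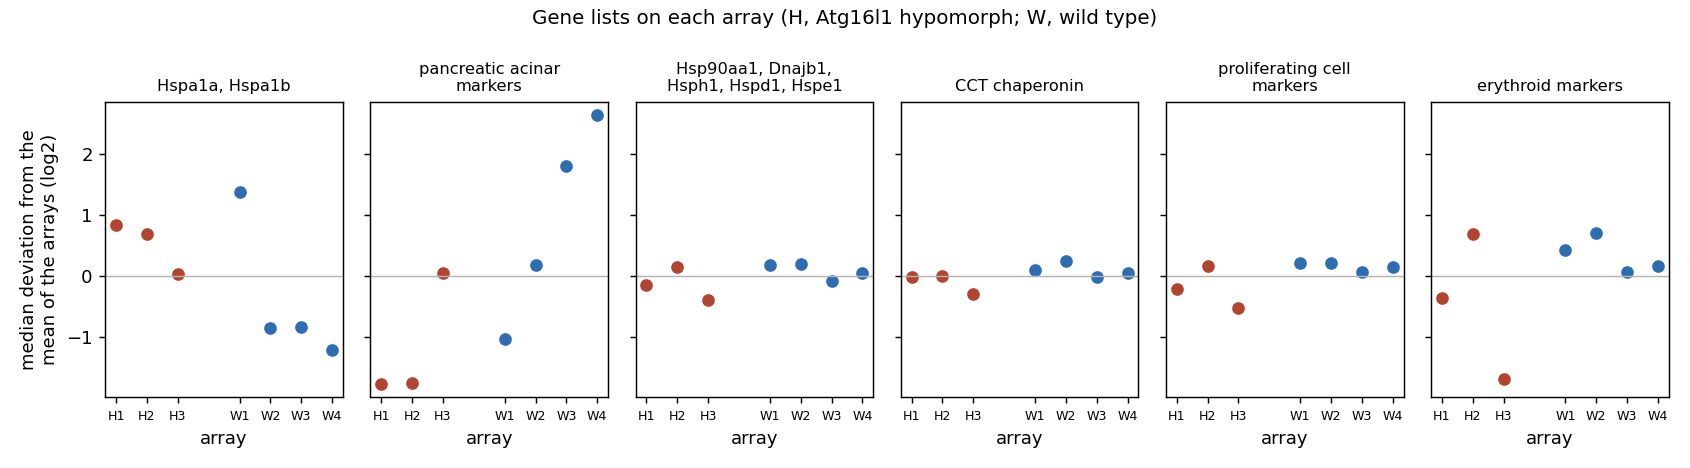
Median deviation of a list's genes from their mean over the arrays (vertical axis, log2) on each array (H1 to H3, Atg16l1 hypomorph, red; W1 to W4, wild type, blue), for the Hspa1 genes, acinar markers, 5 further heat shock genes, the cytosolic chaperonin, and markers of proliferating and erythroid cells. The Hspa1 genes are highest on W1 (1.37), acinar markers highest on W4 (2.63), and the last 4 panels are lowest on H3.

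Over the whole list, the data gave no heat shock gene a call. Of 21 probe sets, 9 had a positive and 12 a negative change, and by the leading probe set 4 genes had a positive and 6 a negative change. The median change of the 10 genes was -0.08, beside 0.002 over all 22625 probe sets, and the list had no common direction. None of the 21 probe sets passed an adjusted p of 0.05 (lowest 0.644) in the limma fit, in which 0.00% of all probe sets did. At an unadjusted p under 0.05, 2 of 21 were higher in the hypomorph (those of Hspb1 and Hspa8 above), against 4.35% of all probe sets, and 0 were lower, against 3.34%. The groups separated without overlap in 0 of 21 probe sets in either direction, where 3.07% of all probe sets were higher and 2.50% lower without overlap. With wild-type replicate 1 left out, 6 of 21 were higher at an unadjusted p under 0.05, against 3.80% of all probe sets, and 0 were lower, against 2.41%. The 6 were the 4 probe sets of Hspa1a and Hspa1b, which may bind each other's transcripts, and the same probe sets of Hspb1 and Hspa8. This array was singled out because of the Hspa1a and Hspa1b values. The count of 6 therefore only describes what 1 array changes and is no test of the list.

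**Figure D5:**
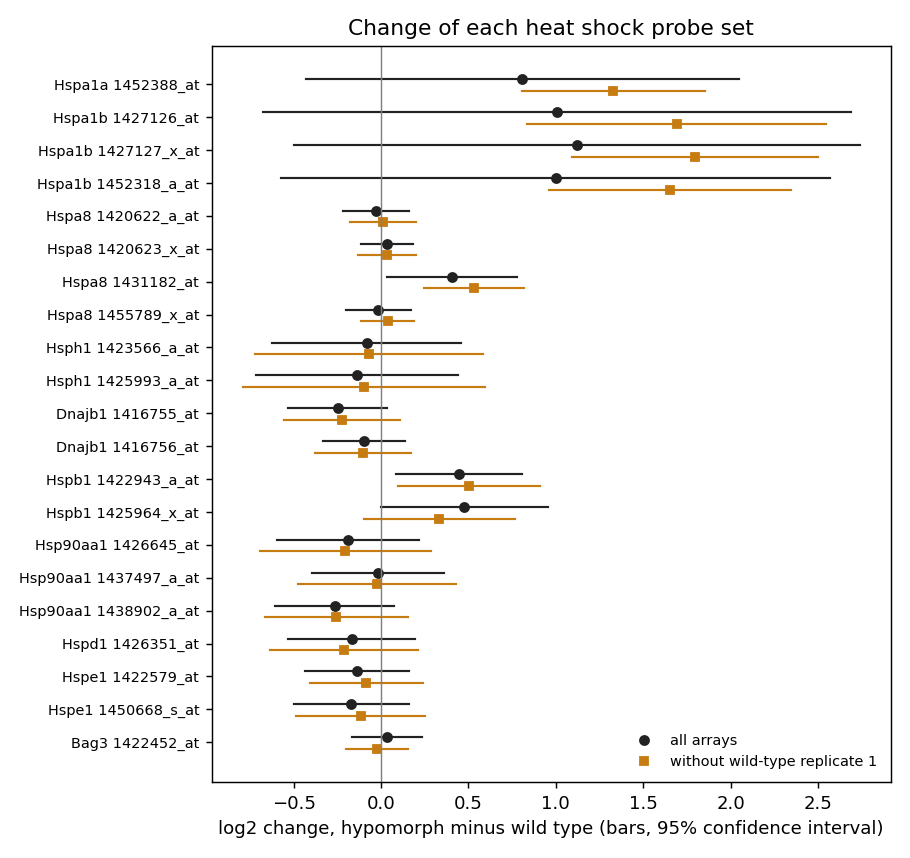
Log2 change, hypomorph minus wild type (horizontal axis, points), with 95% confidence interval (bars) for each of the 21 probe sets, with all arrays (black circles) and without wild-type replicate 1 (orange squares). The 4 Hspa1a and Hspa1b probe sets have wide intervals that include 0 with all arrays and lie above 0 without that replicate, where the other probe sets move little.

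In this and the following lists, each gene of the chaperone system outside the members was taken by its leading probe set. Of 74 such genes listed, 63 were measured, with 19 positive and 44 negative changes, a median of -0.07, and 0 past the adjusted threshold. At an unadjusted p under 0.05, 2 of the 63 were higher, where 4.35% of all probe sets were, and 3 were lower, where 3.34% were. Hsf1, the main heat shock factor, and Hsp90ab1, the constitutive HSP90, had no probe set annotated to them alone. Hsf2, a related factor, read only 3.13, 3.04 and 3.27 on the hypomorph arrays, against 3.32, 3.32, 3.40 and 3.43 on the wild-type arrays, near or below the lower quartiles of all probe sets (3.32 to 3.39 on the hypomorph and 3.31 to 3.37 on the wild-type arrays), with a change of -0.22 (limma adjusted p = 0.644). Hsbp1, a heat shock factor binding protein, had a change of 0.33 with overlapping groups (limma adjusted p = 0.656).

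By their leading probe sets, all 8 genes of the cytosolic chaperonin CCT, a ring that folds actin and tubulin, had negative changes. These ran from -0.24 to -0.11, with a median of -0.20. Cct7 had the smallest p and read 10.08, 10.18 and 9.89 on the hypomorph arrays, against 10.35, 10.42, 10.18 and 10.22 on the wild-type arrays (limma adjusted p = 0.644), and Cct4 had a change of -0.22. Other probe sets of Cct4 had changes of -0.20 and 0.11, so the probe sets of this gene differed in sign. All 8 leading probe sets were lowest on hypomorph replicate 3, like Hsp90aa1 and the mitochondrial chaperonin. Their median deviations were -0.02, 0.00 and -0.29 on the hypomorph arrays, against 0.09, 0.24, -0.02 and 0.05 on the wild-type arrays.

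Of 20 measured cochaperones and exchange factors, 16 had negative changes, with a median of -0.05. Fkbp5, an HSP90 cochaperone that glucocorticoids induce, was at 10.44, 10.42 and 10.50 on the hypomorph arrays, against 10.25, 10.20, 10.30 and 10.34 on the wild-type arrays, a change of 0.18 (limma adjusted p = 0.644). Its relative Fkbp4 had a change of -0.24 (limma adjusted p = 0.644). The HSP90 cochaperones Stip1 and Ahsa1, which heat shock factor 1 is known to induce, both had changes of -0.12. Fkbp5 and Fkbp4 thus had opposite signs, and neither passed the adjusted threshold.

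Of 17 measured J proteins, 7 had positive and 10 negative changes, with a median of -0.02. Dnajc7, a cochaperone of HSP70 and HSP90, read 8.40, 8.38 and 8.58 on the hypomorph arrays, against 7.53, 8.37, 8.06 and 7.94 on the wild-type arrays, a change of 0.47 with wild-type replicate 1 lowest and replicate 2 just below the hypomorph arrays (limma adjusted p = 0.644). Dnaja1, a partner of cytosolic HSP70, had a change of -0.05, and Dnajc8 one of -0.14. Among the HSP70 and HSP110 relatives 5 of 7 were negative, among them Hspa4, an HSP110 relative, at -0.14, and Hspa9, the mitochondrial HSP70, at -0.07. Hspa12b, a distant HSP70 relative that read about 3 throughout, had a change of 0.14. Hspa1l, a relative of Hspa1a and Hspa1b, read 2.48, 2.48 and 2.36 on the hypomorph arrays, against 2.70, 2.48, 2.48 and 2.48 on the wild-type arrays, below the lower quartile of every array. Trap1, the mitochondrial HSP90, had a change of -0.28 (limma adjusted p = 0.644). The 7 genes listed as other small heat shock proteins averaged 3.57 to 3.64 on the hypomorph and 3.56 to 3.77 on the wild-type arrays. Hspb11, at 5.82 to 6.02, lifted this average, while the rest read between 2.43 (Hspb3) and 3.75 (Cryaa). Changes in this list ran from -0.16 (Hspb3) to 0.05, with -0.04 for Hspb11.

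The genes whose values followed the strongly heat-inducible members most closely were sought by Pearson r over the 7 arrays with the mean of Hspa1a, Hspa1b, Hsph1, Dnajb1, Hspb1 and Bag3, each centred on its own mean. That mean was 0.21, 0.35 and -0.02 on the hypomorph arrays, against 0.48, -0.22, -0.36 and -0.45 on the wild-type arrays. The members were not scaled, so Hspa1a and Hspa1b, with the widest ranges, weighed most in it. With Hspa1a, r was 0.57 for Hspb1, 0.03 for Hsph1, -0.12 for Dnajb1 and -0.51 for Bag3. The 5 closest genes were Ndufa7 (r = 0.970), Rasgrf2 (0.967), Ppef2 (0.962), Ripk4 (0.960) and Kcnip3 (0.952), with ranges over the arrays of only 0.16 to 0.41. Of these, Ripk4 read 2.23 to 2.54, below the lower quartile of every array, and Ppef2 read 3.08 to 3.37, near or below it. For the mean of Hspd1 and Hspe1 they were Nolc1 (r = 0.990), Gdf3 (0.986), Wdr61 (0.983), Txnl1 (0.983) and Rad51ap1 (0.983), with ranges from 0.30 to 1.64. These are the highest of many values over 7 points and are given as descriptions.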

How the data were processed

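Values were 1 log2 signal per probe set and array, deposited by the authors; the submitters' processing notes name Affymetrix Power Tools, with no version, summary method, background correction or normalization stated. Per the labels' protocols, Trizol extracts of 100 ng RNA were labelled for Affymetrix Mouse430A arrays. Of 22690 probe sets, 64 controls and 1 without a value were left out. Names came from the platform annotation, updated by Entrez identifier (RefSeq, GRCm38.p6); 20379 probe sets named 1 gene, 691 several and 1555 none. The genotype difference was fitted in R 4.3.3 by limma 3.58.1 (lmFit and eBayes without a block), and p-values were adjusted by Benjamini-Hochberg across the 22625 probe sets. Single values were compared by exact two-sided permutation over 35 splits. A gene's leading probe set had the highest mean over all arrays. The fit was tested on simulated data. Members and lists were chosen with earlier results of these data known. The rule for named genes took every member, Hsf1, Hsf2, Hsp90ab1, Hspa9, Dnaja1, Stip1 and Ahsa1, up to 2 further genes per chaperone list by smallest p, and 5 genes by likeness; Itgax, Zbtb32 and Hspa1l were named outside it or after their values were seen.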

Additional observations from a re-analysis of the deposited data

Results flagged for a closer look

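Within the 4 wild-type arrays, replicate 1 stood far above the others for all 3 Hspa1b probe sets. Its gap to the next array, as a share of the range of the 4 arrays, was 0.880 for the leading probe set and 0.884 and 0.891 for the others, above Dixon's 95% critical value for 4 samples. The 3 probe sets are annotated to the same gene and are not independent, and chance alone marks about 1 in 20 groups, of which 22 were examined. For the Hspa1a probe set the share was 0.735, under the critical value.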

How the results depend on the processing

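The adjusted threshold of 0.05 in limma was passed by 0 heat shock probe sets under any of the 16 alternatives run. The replicate block left the count at 0 and gave changes of 0.74 for Hspa1b and a median of -0.10 over the members; same-numbered arrays correlated at 0.102, 0.0977 and 0.339 in their deviations from the group means, hypomorph replicate 1 correlated best with wild-type replicate 2, and no label pairs the arrays. The median change of the members ran from -0.15 to 0.02 with single arrays left out and was -0.26 with the acinar covariate. That covariate, chosen after the data were seen, also turned the sign for Hspa1a (-0.23) and Hspa1b (-0.25). It made the changes of Hsp90aa1, Dnajb1 and Hspe1 more negative, at -0.46, -0.39 and -0.42. Their intervals were -0.85 to -0.06, -0.74 to -0.05 and -0.71 to -0.13 (limma adjusted p = 0.414, 0.417 and 0.364). Hspd1 (-0.27), Hsph1 (-0.37) and Hspa8 (-0.13) also became more negative, while Hspb1 was at 0.39 and Bag3 at 0.09. Hspa8 turned to 0.0109 with array weights and 0.10 with the mean over its probe sets. With single arrays left out, Hspa8 ran from -0.0535 to 0.0398, Hsph1 from -0.482 to 0.0472, Bag3 from -0.0216 to 0.0873, Hspa1b from 0.74 to 1.65 and Hspa1a from 0.52 to 1.33. Over all probe sets, 5 passed with array medians centred, 5 with trend and robust settings, 5 among probe sets above the median of mean values, 3 with array weights, and 0 to 2 with single arrays left out, against 0 as reported. Hspb1 has no value under that filter. Atg16l1 stayed between -0.50 and -0.36 in 15 alternatives, with adjusted p from 0.153 to 0.827. Where a cause is not part of the setting, the cause was not tested.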
